A study of Mus musculus with 11 samples.

Results

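Open chromatin at 40 genes for regulators of chromatin and DNA methylation was described in mouse CD8 T cells. A region belonged to a gene of the set when that gene was the nearest RefSeq protein-coding gene span within 100 kb on build mm10, at distance 0 inside the span. This rule took 494 of the 111041 regions that were listed as open in any of 11 libraries, and each of the 40 genes had at least 1. Distance does not show which gene a region acts on, and 4 of the 494 regions were equally near a gene outside the set.

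The measurement was ATAC-seq, in which a transposase cuts and tags accessible DNA. All cells were CD8 T cells with a YFP reporter for Tcf7, the gene of TCF-1, a transcription factor of naive and memory T cells. Naive cells were CD8+CD44-CD62L+Tcf7-YFP+ splenocytes, antigen-experienced cells were CD8+CD44+CD62L+Tcf7-YFP+ splenocytes, and effector cells had been activated ex vivo for 3 days, each as a single library. A first sort by Tcf7-YFP at day 3 was followed by reculture and a second sort at day 9. Cells taken as YFP high both times are called high_to_high (2 libraries) and cells taken as low both times low_to_low (3 libraries). Those low in the first sort and high in the second are called low_to_high (3 libraries). The labels give the spleen as the tissue of every library. They name neither the strain nor the age, and do not say whether replicates were separate animals or cultures, so p-values may measure only technical spread.

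These proteins set, remove or read marks on DNA and histones. DNA methyltransferases add methyl groups to CpG sites and TET dioxygenases oxidise them. Polycomb complexes, H3K9 methyltransferases and histone deacetylases mostly restrain transcription, whereas the KMT2 enzymes, acetyltransferases and SWI/SNF remodellers are mostly linked to active promoters and enhancers. In CD8 T cells several of them, among them Dnmt3a, Tet2 and Ezh2, are known for their part in the choice between effector and memory fates.

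Library depth ran from 20.8 to 59.97 M tags, and the weakest listed peak rested on 8.0 to 14.0 tags. A region that is missing from a list is not known to be closed. The share of tags inside peaks was 15.01% in the naive, 15.8% in the antigen-experienced and 9.08% in the effector library. It was 9.01 to 10.2% in the 5 YFP-high and 10.4 to 12.5% in the 3 YFP-low libraries of day 9. Peak windows were 172 bp wide except in the naive library (132 bp) and high_to_high replicate 2 (136 bp). All 5 CD8 T cell marker genes had regions, with summed normalized tag counts of 410 to 1230 per library. Of 5 B cell and 5 myeloid markers, 4 each had regions, with summed values of 65.0 to 178 and 97.4 to 238. All 3 NK cell markers (227 to 528), 4 CD4 and regulatory T cell markers (288 to 451) and 3 erythroid markers (55.8 to 108) had regions. In effector and day 9 libraries NK sums (227 to 368) and CD4 sums (288 to 398) were below CD8 sums (410 to 644). These sums run over 3, 4 and 5 genes, so their order does not rank the cell types. In the effector library most of the NK sum came from Klrb1c (223). Most of its CD4 and regulatory T cell sum came from Ctla4 (316), with 16.2 at Cd4. Cd79a of B cells and Csf1r of myeloid cells had no region in any library. The part of any other cell type, of depth or of window width in the results below was not tested.

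Promoters were the part of these loci that most genes shared. RefSeq promoter windows (build GRCm38.p6, 250 bp before to 50 bp after a start) were on hand for 33 of the 40 genes. A region lay on such a window in 26 of the 33 genes (78.8%), against 54.8% of 17273 genes. Those of 5 genes are printed because they run from CpG-rich windows with a peak to one with neither CpG sites nor a peak. Capitals mark GC boxes (GGGCGG), the RUNX letters TGTGGT, the NRF1 palindrome (the capitals at the 3′ end of the Dnmt1 window) and TATAAA, searched on both strands with AP-1 (TGANTCA) and ETS (CCGGAAG) letters; no marked matches overlap in these windows. All 5 genes lie on the minus strand, and each sequence reads 5′ to 3′ along the gene.
Tet2, chr3:133544341-133544640: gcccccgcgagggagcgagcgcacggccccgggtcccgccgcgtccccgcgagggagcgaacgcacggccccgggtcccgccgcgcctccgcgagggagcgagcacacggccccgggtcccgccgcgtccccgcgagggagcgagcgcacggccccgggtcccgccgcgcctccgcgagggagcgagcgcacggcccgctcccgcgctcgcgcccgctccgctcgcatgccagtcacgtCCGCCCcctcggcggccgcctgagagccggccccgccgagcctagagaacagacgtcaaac
Tet1, chr10:62887275-62887574: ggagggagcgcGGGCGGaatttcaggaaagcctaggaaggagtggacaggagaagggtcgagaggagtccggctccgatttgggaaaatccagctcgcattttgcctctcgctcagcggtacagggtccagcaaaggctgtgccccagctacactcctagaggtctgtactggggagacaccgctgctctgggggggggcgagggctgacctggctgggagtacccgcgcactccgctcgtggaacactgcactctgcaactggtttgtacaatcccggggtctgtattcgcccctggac
Ezh2, chr6:47594981-47595280: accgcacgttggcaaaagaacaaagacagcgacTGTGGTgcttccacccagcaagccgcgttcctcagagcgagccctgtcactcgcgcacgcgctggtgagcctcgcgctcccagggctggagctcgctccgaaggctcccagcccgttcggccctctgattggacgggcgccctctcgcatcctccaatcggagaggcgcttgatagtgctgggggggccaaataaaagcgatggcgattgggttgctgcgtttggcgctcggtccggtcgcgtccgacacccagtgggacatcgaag
Dnmt1, chr9:20952574-20952873: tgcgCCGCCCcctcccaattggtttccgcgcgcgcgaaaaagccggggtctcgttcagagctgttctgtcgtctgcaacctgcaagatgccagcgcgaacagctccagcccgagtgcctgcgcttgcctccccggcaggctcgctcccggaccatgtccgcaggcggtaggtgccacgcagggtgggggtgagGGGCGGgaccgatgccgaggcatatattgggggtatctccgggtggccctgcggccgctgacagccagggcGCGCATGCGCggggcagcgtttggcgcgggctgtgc
Hdac9, chr12:34917046-34917345: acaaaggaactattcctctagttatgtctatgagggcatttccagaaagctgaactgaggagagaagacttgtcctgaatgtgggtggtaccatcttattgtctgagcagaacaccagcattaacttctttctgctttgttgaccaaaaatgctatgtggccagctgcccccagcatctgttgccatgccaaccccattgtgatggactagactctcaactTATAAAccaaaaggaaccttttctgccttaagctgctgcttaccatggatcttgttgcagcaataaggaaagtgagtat

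The Tet2 window held 57 CpG sites, the Dnmt1 window printed 33, that of Ezh2 31 and that of Tet1 17. The other Dnmt1 windows, not printed, held 12 and 2, and no listed region reached the last. The Hdac9 window printed, 1 of its 2, held 0. A region called in all 11 libraries covered part of the Tet2, Ezh2 and Dnmt1 windows. No listed region reached those of Tet1 or Hdac9. The nearest region centre lay 334 bp from the Tet1 start. GC boxes were in 34 of the 44 windows of the set (77.3%, against 46.2% of 21237 protein-coding windows), and the median CpG count was 30 against 13. The ETS letters were in 2 windows (4.55% against 11.6%), the RUNX letters in 3 (6.82% against 14.97%) and the AP-1 letters in 3 (6.82% against 6.99%). The NRF1 letters were in 2 (4.55% against 1.33%), both of Dnmt1, and TATAAA in 1 (2.27% against 12.6%). A match describes letters and is not a measured binding site.

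Regions per gene ranged from 1 at Hdac3, a catalytic subunit of corepressor complexes, to 62 at Arid1b, a DNA-binding subunit of SWI/SNF. The median was 9. Of the 494 regions, 379 (76.7%) were inside the gene span, against 60.5% of all regions. The 3 genes with the most regions were Arid1b, which spans 353 kb, Hdac4, a class IIa deacetylase (49 regions in 267 kb), and Hdac9 of the same class (30 in 870 kb). Shorter loci could hold many as well, with 24 each at Tet2 (81.5 kb) and Mbd2 (60.9 kb) and 17 at Eed (26.3 kb), a PRC2 subunit.

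**Figure D1:**
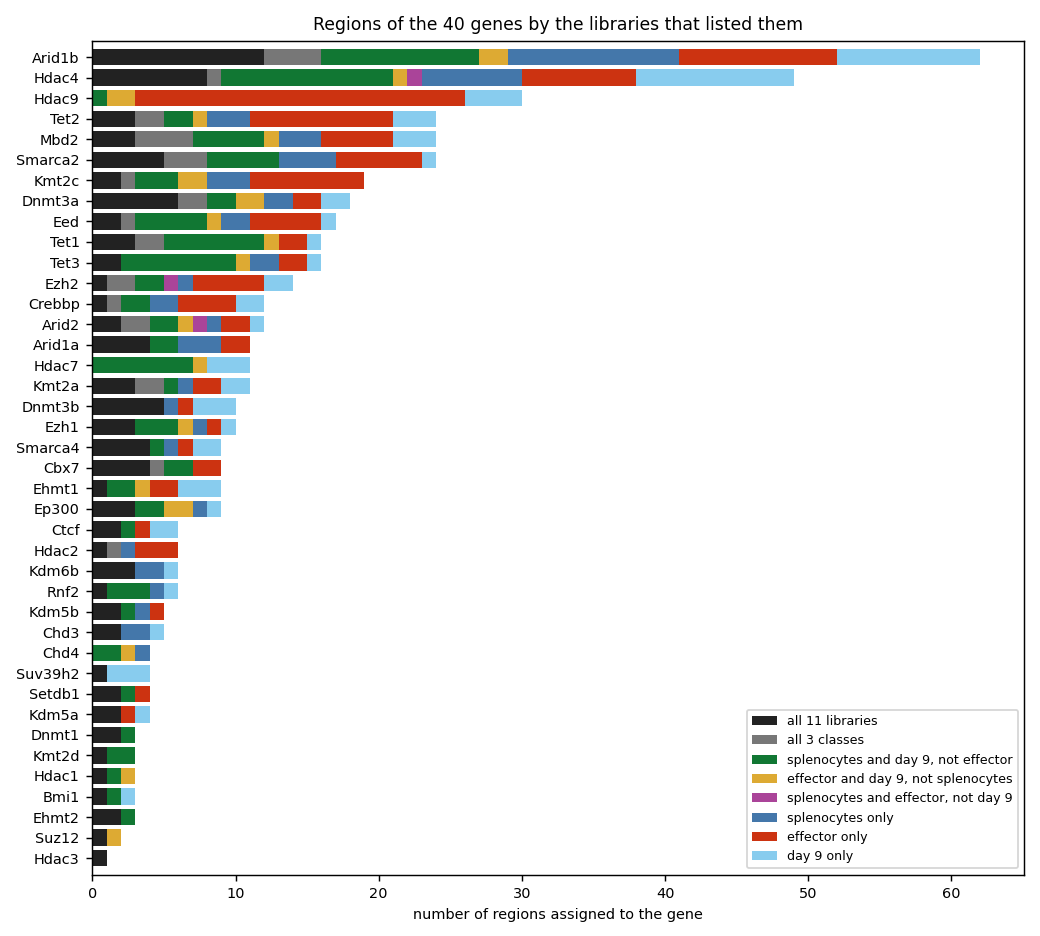
Number of regions (x axis) assigned to each of the 40 genes (y axis), split by the libraries that listed them; "all 3 classes" means splenocyte, effector and day 9 lists, but fewer than 11. Arid1b (62 regions) and Hdac4 (49) hold most regions, and 23 of the 30 Hdac9 regions are in the effector list only.

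The set as a whole was shared among the cell states in about the same proportions as the genome. In all 11 libraries 102 regions were listed (20.6%, against 21.1% of all regions). The effector library alone listed 111 (22.5%, against 23.4%), and day 9 libraries alone listed 67 (13.6%, against 14.2%). Splenocyte and day 9 libraries but not the effector library listed 101 (20.4%, against 18.2%). Only the naive or antigen-experienced library listed 58 (11.7%, against 8.1%), effector and day 9 but no splenocyte library 23 (4.66%, against 5.16%), and splenocytes and effector alone 3 (0.607%, against 1.02%). The remaining 29 (5.87%, against 8.74%) were in all 3 classes but not in every library. At least 6-fold local enrichment in place of 4-fold left 62 regions in all 11 libraries and 66 in the effector list alone. No share over all regions is given at 6-fold.

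Single genes departed from that average. Of the 24 Tet2 regions, 10 were in the effector list only, at normalized tag counts (tags per 10 M tags of the library) of 6.30 to 42.8. The highest, chr3:133515300-133515472 inside the gene, had 42.8, and one at chr3:133626639-133626811, 81503 bp outside the span, had 40.1. Another, chr3:133437068-133437240, had 39.7 and lay 26437 bp outside on the other side. Tet2 oxidises 5-methylcytosine, as do Tet1 and Tet3. Those 2 relatives showed the other pattern: 7 of 16 Tet1 regions and 8 of 16 Tet3 regions were in splenocyte and day 9 lists but not in the effector list. Hdac7, a class IIa deacetylase of the T cell lineage, had 7 of 11 regions of that kind and none in all 11 libraries. Hdac9 had 23 of 30 in the effector list alone, most of them weak, with a median of 4.61 and a range of 3.10 to 19.6. The effector list was the longest (66117 peaks from 53.2 M tags), and its weakest peak was at 2.63.

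**Figure D2:**
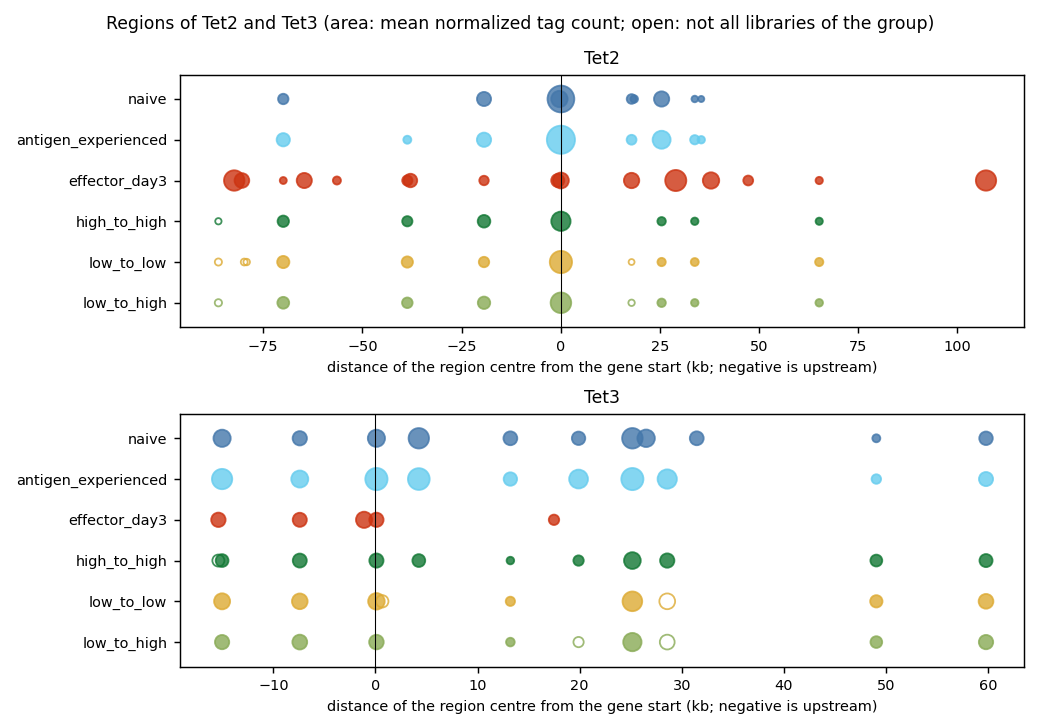
Regions of Tet2 and Tet3 by distance of the region centre from the nearest start (x axis, kb) in the 6 groups (y axis). The area of a circle is the group's mean normalized tag count, and open circles were not listed in every library of the group; 10 of 24 Tet2 regions appear only in the effector row, and 8 of 16 Tet3 regions have circles in splenocyte and day 9 rows but none in the effector row.

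The other effector-only regions with the highest values were at Mbd2, which binds methylated CpG (44.8), and at Arid1b (chr17:5255549-5255721, 43.8). Splenocyte-only regions reached their highest values at Kdm6b, an H3K27 demethylase, with 56.0 in the naive and 85.0 in the antigen-experienced library at chr11:69410872-69411044. Another Kdm6b region had 48.2 in the naive library alone. At Hdac4 a naive-only region had 84.3, 156 bp from its neighbour, and an antigen-experienced-only region had 54.8. A region 1467 bp outside Arid1a, a SWI/SNF subunit, was listed at 58.2 in the antigen-experienced library alone. Of the 58 splenocyte-only regions, 15 lay within 400 bp of another region, and HOMER keeps peaks at least 264 bp apart in the naive and 346 bp in the antigen-experienced library.

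Day 9 cells listed a few regions that no reference library did. Of the 67 regions in day 9 lists alone, 27 (40.3%) lay within 400 bp of another region. Whether peak placement made them day 9-only was not tested. Of the 494, 7 (1.42%, against 0.934% of all regions) were in all 8 day 9 libraries and in none of the 3 references. The strongest lay in Dnmt3a, a de novo DNA methyltransferase, at chr12:3897161-3897355, 5514 bp from the nearest start. Its values are given with the day 9 comparison. Of the others, 3 were at Arid1b, and 1 each at Arid2, Crebbp (a histone acetyltransferase) and Hdac9. The Arid1b region chr17:5017591-5017805 had 15.3 and 10.3 in high_to_high, 13.2, 19.7 and 13.1 in low_to_low, and 12.3, 14.1 and 12.7 in low_to_high. The remaining 5 had 4.19 to 11.9. A close neighbour of that Arid1b region, chr17:5017117-5017414, was listed in the naive (11.7), the antigen-experienced (25.6) and all 8 day 9 libraries. Another 6 day 9 regions were complete in 1 or 2 of the 3 groups. They were at Hdac4 (2), Dnmt3b, Tet1, Crebbp and the Ep300 promoter. Beside the Ep300 one, chr15:81586190-81586375 was listed in the naive (22.7) and antigen-experienced (30.5) libraries. The Tet1 region chr10:62825690-62826035 was listed in the 3 low_to_low libraries at 4.67, 3.70 and 4.73, in high_to_high replicate 2 at 3.67 and nowhere else. These values are near the weakest peak of each list (2.25 to 4.32).

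A Tet2 region and a Tet1 region were more open in YFP-high than in YFP-low cells at day 9. The test was limma on log2(normalized tag count + 1), after centring every library on its own median. It covered the 34383 regions that all 8 libraries of day 9 listed. An adjusted p (Benjamini-Hochberg over all 34383) under 0.05 counted as a call. The set had 159 such regions in 39 genes. Chd4, a helicase of the NuRD complex, had none and was not tested. Between YFP-high and YFP-low cells, 2 of the 159 were called (0.332% of all regions called, 0.329% higher). For high_to_high against low_to_low 2 were called as well (0.596%, 0.558% higher), and for low_to_high against low_to_low 0 (0.032%). For low_to_high against high_to_high limma called 0 (0% of all regions).

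The Tet2 region, chr3:133563600-133563874, lay 18464 bp outside the gene on the promoter side. Its normalized tag count was 15.9 and 14.8 in high_to_high, 17.6, 12.6 and 14.2 in low_to_high, and 11.2, 10.2 and 9.88 in low_to_low. The naive library had 19.2, the antigen-experienced one 19.6 and the effector one 8.65. The YFP-high and YFP-low libraries did not overlap on the deposited or the centred scale. The splenocyte values were above all 8 day 9 values on the deposited scale only. Centred on the regions listed in all 11 libraries, the log2 value was -0.53 in naive and -0.75 in antigen-experienced cells, below -0.31 and -0.40 in high_to_high. The log2 difference between YFP-high and YFP-low cells was 0.70 ± 0.15 (SE, limma adjusted p = 0.0217, n = 5 and 3). It was 0.81 ± 0.19 for high_to_high against low_to_low (limma adjusted p = 0.0280) and 0.63 ± 0.17 for low_to_high against low_to_low (limma adjusted p = 0.304). These last comparisons share the 3 low_to_low libraries. With the replicate number as a block over low_to_high and low_to_low alone, an alternative chosen after seeing the data, the last value passed (limma adjusted p = 0.0376).

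The Tet1 region, chr10:62840778-62841047, lay inside the gene, 46412 bp from the start. Its normalized tag count was 20.7 and 19.4 in high_to_high, 21.5, 18.4 and 18.0 in low_to_high, and 16.3, 16.2 and 12.7 in low_to_low. The naive library had 17.9 and the antigen-experienced one 11.1, and the effector library did not list it. Here too every YFP-high library was above every YFP-low one, on both scales. The Tet2 and Tet1 regions were picked by their p in this comparison, so the lack of overlap is no further support. The log2 difference was 0.58 ± 0.13 between YFP-high and YFP-low cells (SE, limma adjusted p = 0.0348). It was 0.69 ± 0.16 for high_to_high (limma adjusted p = 0.0351) and 0.51 ± 0.15 for low_to_high (limma adjusted p = 0.441), each against the same low_to_low libraries.

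Both calls rested on few libraries and on centring, while the direction held in each alternative run. On the deposited scale the adjusted p for YFP-high against YFP-low was 0.0550 for Tet2 and 0.0953 for Tet1. With a covariate for each library's share of tags inside peaks the limma log2 difference was 0.36 for Tet2 and 0.41 for Tet1 (adjusted p = 0.999 for each). Leaving out high_to_high replicate 1 or 2, low_to_low replicate 2 or 3, or low_to_high replicate 1 also ended both calls for YFP-high against YFP-low, with limma adjusted p from 0.0603 to 0.311. The first 4 of these libraries, the covariate and the deposited scale ended the calls for high_to_high against low_to_low as well.

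**Figure D3:**
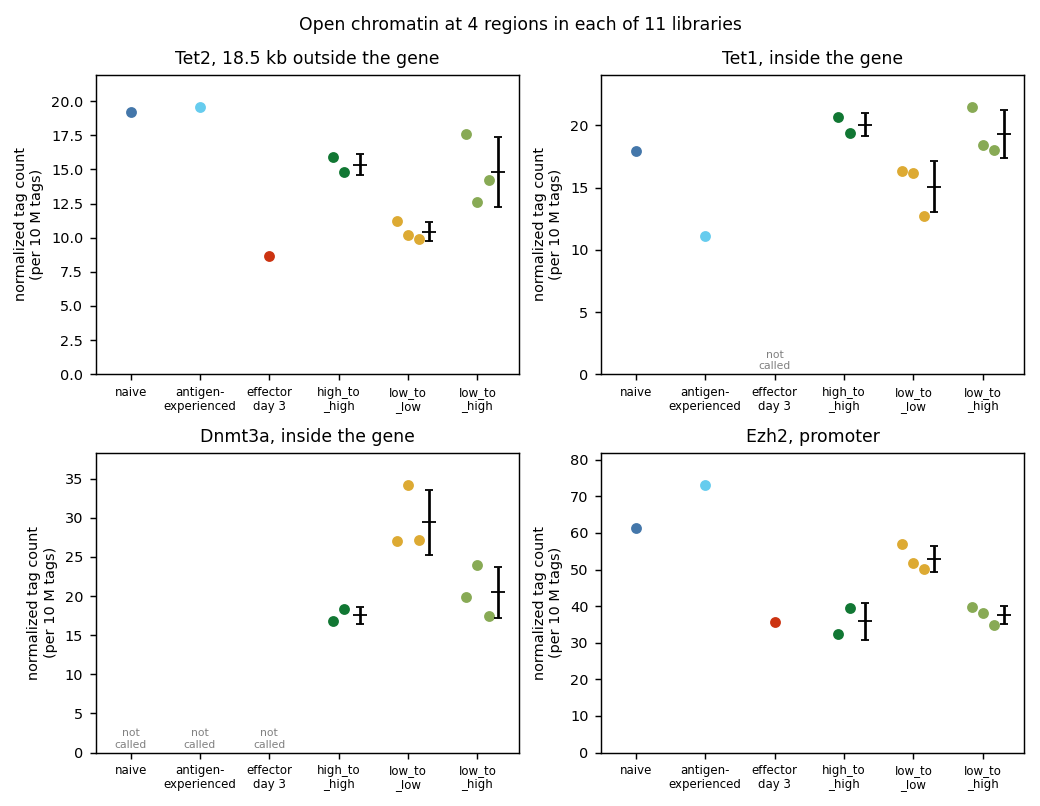
Normalized tag count (y axis, tags per 10 M) of 4 regions in each library of the 6 groups (x axis); points are libraries and black bars give mean ± SD where a group has 2 or more values. The 3 low_to_low libraries lie below all 5 YFP-high libraries at the Tet2 and Tet1 regions and above them at the Dnmt3a and Ezh2 regions on this deposited scale; the Ezh2 groups overlap after centring.

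At Dnmt3a and Ezh2 the values ran the other way, without a call. The Dnmt3a region found only at day 9 had 16.8 and 18.3 in high_to_high, 19.9, 24.0 and 17.5 in low_to_high, and 27.0, 34.2 and 27.1 in low_to_low. The promoter of Ezh2, the H3K27 methyltransferase of PRC2 printed above, overlaps chr6:47595030-47595322. This region had 32.3 and 39.4 in high_to_high, 39.7, 38.1 and 34.8 in low_to_high, and 56.9, 51.7 and 50.1 in low_to_low. On the deposited scale the 3 YFP-low libraries lay above the 5 YFP-high ones at each of these regions. After centring this held at Dnmt3a, whereas at Ezh2 high_to_high replicate 2 (1.22) was above low_to_low replicate 2 (1.16) on the log2 scale. The centred log2 difference, YFP-high minus YFP-low, was -0.37 ± 0.12 at Dnmt3a (SE, limma adjusted p = 0.237) and -0.29 ± 0.10 at Ezh2 (limma adjusted p = 0.321). On the deposited scale it was -0.59 (limma adjusted p = 0.0259) and -0.51 (limma adjusted p = 0.0236).

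Centring bears on the whole set. On the deposited scale the median difference over all tested regions, high_to_high minus low_to_low, was -0.30, and 41 of the 159 regions of the set (7410 of 34383 overall) were called, each lower in high_to_high. For YFP-high against YFP-low 9 of the set were called there, each lower, with no share over all regions given here. After centring, the median difference of the set was -0.00 in the YFP comparison, and 78 of 159 differences were above 0. Unadjusted p under 0.05 was reached by 14 of the 159 for YFP-high against YFP-low (8.07% of all regions) and 18 for high_to_high against low_to_low (9.92%). It was reached by 11 for low_to_high against low_to_low (5.56%) and 4 for low_to_high against high_to_high (5.09%).

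Among the regions with the lowest p that were not called, Dnmt3b chr2:153668863-153669106 had 7.55 and 8.17 in high_to_high, 6.29, 7.59 and 9.60 in low_to_high, and 6.51, 8.24 and 4.94 in low_to_low. These values overlapped between YFP-high and YFP-low cells, whereas the centred ones did not. The centred log2 difference was 0.46 ± 0.17 (limma adjusted p = 0.359). An Arid1b region, chr17:5238766-5239154, had 15.3 and 8.42 in high_to_high against 6.39, 10.0 and 11.4 in low_to_low, with overlap on both scales. An Hdac4 region, chr1:92130365-92130753, had 10.1, 9.75 and 9.12 in low_to_high and 8.60, 8.12 and 6.23 in low_to_low. It was 0.48 ± 0.17 higher in that comparison (limma adjusted p = 0.710), and stood at 34.8 in naive and 36.9 in antigen-experienced cells.

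Between the YFP-high groups the lowest p belonged to Hdac4 chr1:92069496-92069762, with 30.4 and 30.4 in high_to_high and 28.6, 28.5 and 22.8 in low_to_high. The low_to_high minus high_to_high difference was -0.31 ± 0.14 (limma adjusted p = 0.974). A neighbouring Hdac4 region, chr1:92064395-92064610, had 55.6 and 52.2 in high_to_high and 66.1, 75.7 and 66 in low_to_high. At Cbx7, a PRC1 subunit that reads H3K27 methylation, chr15:79950297-79950558 had 25.6 and 22.4 against 31.6, 32.5 and 31.2. The promoter region of Ctcf, which shapes chromatin loops, had 43.0 and 32.4 against 31.1, 37.0 and 32.2. Dnmt3a chr12:3870959-3871308 had 25.6 and 19.7 against 36.9, 29.4 and 25.9. Before centring the groups overlapped at Ctcf and not at the other 4. After centring they overlapped at Dnmt3a and not at the other 4, and none of the 5 was called. These 5 were chosen by the lowest p of this comparison, so little overlap follows from the choice. No share over all regions was computed.

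**Figure D4:**
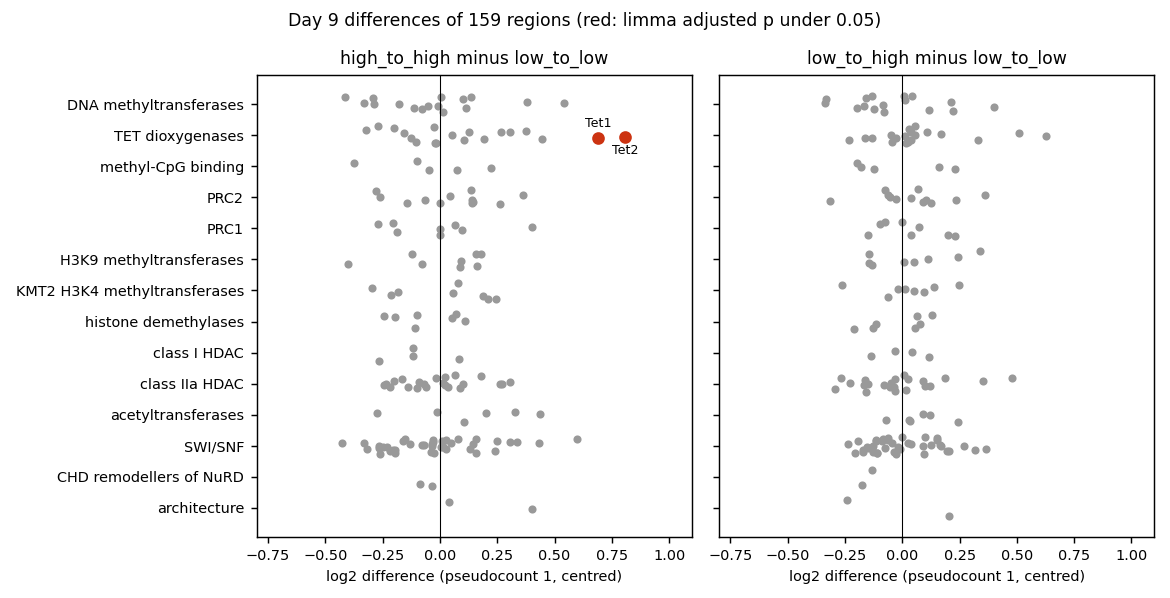
Centred log2 difference (x axis) of the 159 regions tested at day 9, by the role of the gene (y axis), for high_to_high and low_to_high against the same 3 low_to_low libraries; red marks a limma adjusted p under 0.05. The Tet2 (0.81) and Tet1 (0.69) regions lie farthest right in the left panel, and no region is red in the right one.

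Sums over the tested regions of each gene gave 0 calls among 39 genes in all 4 limma comparisons (0.0729%, 0.204%, 0.00729% and 0% of 13717 genes for YFP-high against YFP-low, high_to_high against low_to_low, low_to_high against low_to_low and low_to_high against high_to_high). Unadjusted p was under 0.05 for 2, 4, 0 and 2 of the 39, against 6.69%, 8.86%, 4.4% and 5.26% of all genes. Tet1 had the lowest p for high_to_high against low_to_low. Its summed normalized tag count was 64.7 and 58.8 in high_to_high and 62.4, 67.0 and 57.0 in low_to_low, which overlap before centring and not after it. Its centred log2 difference was 0.33 ± 0.10 (limma adjusted p = 0.274). Arid1a summed to 215 and 202 against 264, 326 and 291 (-0.16 ± 0.06, limma adjusted p = 0.388). Suz12, the PRC2 scaffold, and Dnmt3a were next, at -0.24 and -0.15 (adjusted p = 0.559 for each).

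Another 124 chromatin regulator genes outside the set had 359 tested regions. Of these, limma called 2 higher for YFP-high against YFP-low, and 3 higher and 1 lower for high_to_high against low_to_low. It called 0 in the other comparisons.

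Effector cells after 3 days differed from naive splenocytes by more than 2-fold at 31 regions of the set, none of them on a promoter window on hand. Each state had 1 library, so there is no test and no replicate check. Differences are centred on the median of all regions called in both libraries, a shift of 0.71 on the log2 scale, beside the lower share of tags in peaks of the effector library. Of 128 regions called in both, 17 were past 2-fold higher and 14 past 2-fold lower in the effector library (background 20.7%, 14.6% higher and 6.1% lower). The median of the set was -0.16. Without centring, where the median of all regions was -0.71, the counts were 10 higher and 55 lower. No share over all regions is given beside these uncentred counts, so they are not a result about the set.

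The lowest differences included 3 Arid1b regions. The region chr17:5007183-5007400, 12217 bp from the start, had 92.3 in naive, 81.6 in antigen-experienced and 10.2 in effector cells, and 20.8 to 34.5 in the 8 day 9 libraries. The centred effector minus naive difference was -2.35. Other Arid1b regions had 36.6, 39.4 and 3.76 (-2.27) and 34.5, 25.4 and 6.02 (-1.63) in the same order of cells. Mbd2 chr18:70611788-70612096 had 75.2, 48.6 and 9.40, with 42.4 to 57.9 at day 9. Hdac4 chr1:92148560-92148796 had 30.4, 24.1 and 3.2, and Cbx7 chr15:79956572-79956806 had 32.0, 45.6 and 5.45. In each of these 6 regions the effector library was below all 8 day 9 libraries on the deposited scale.

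Other regions of the same genes were higher in effector cells. Mbd2 chr18:70587947-70588182 had 4.13 in naive and 29.4 in effector cells (3.28), and was listed in 2 day 9 libraries at 5.96 and 6.39. Hdac4 chr1:92119318-92119739 had 10.1, 14.5 and 40.2 in naive, antigen-experienced and effector cells (2.60), and 7.52 to 13.5 at day 9. Kdm5a, an H3K4 demethylase, had 9.59, 39.6 and 36.6 at chr6:120453104-120453419, 8530 bp outside the gene (2.54). Kmt2a, an H3K4 methyltransferase, had 13.5, 28.8 and 41.6 at chr9:44868733-44869042 (2.27). Tet2 chr3:133526317-133526742 had 9.06, 9.37 and 22.7 (1.95), and Arid2 chr15:96377322-96377588 had 4.66, 15.8 and 11.9 (1.90). Hdac4, Mbd2 and Tet2 stood highest in the effector library alone, whereas Kdm5a, Kmt2a and Arid2 were also raised in antigen-experienced and day 9 cells relative to the single naive library, whose peak window was the narrowest.

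Against antigen-experienced cells the effector library had 12 of 125 regions past 2-fold higher and 11 lower (background 17.7%, 12.5% higher and 5.21% lower). Without centring, where the median of all regions was -0.92, 3 were higher and 69 lower, with no share over all regions given here. The largest difference was at Ezh2. The region chr6:47621131-47621390, 25861 bp outside the gene, had 60.4 in effector and 5.33 in antigen-experienced cells (4.20). The naive library did not list it. In the 5 day 9 libraries that listed it, it had 4.0 to 7.44. A pair of regions inside Ezh2 had 11 and 10.9 against 5.97 and 6.18 (1.70 and 1.65). A Tet2 region 37736 bp outside the gene had 10.1 against 6.18 (1.55), and 9.25 to 13.6 at day 9. Among the lowest, Dnmt3a chr12:3855776-3856266 had 7.05 against 47.1 (-1.66), and 18.1 to 34.4 at day 9.

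**Figure D5:**
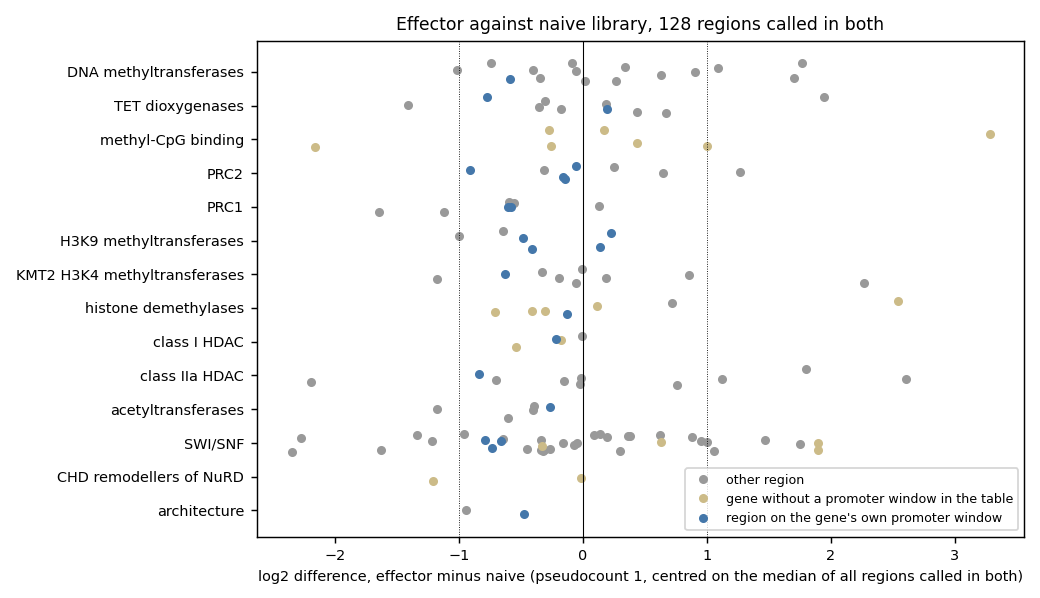
Centred log2 difference, effector minus naive (x axis), of the 128 regions called in both single libraries, by the role of the gene (y axis); dotted lines mark 2-fold. Promoter regions (blue) stay between -0.91 and 0.23, whereas other regions reach -2.35 and 3.28.

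The promoter regions had a narrower range of differences, but not a smaller median. Of 22, 0 were past 2-fold between effector and naive cells, with a median of -0.48 and a range of -0.91 to 0.23. Promoter regions of all genes had a median of -0.40, with 351 of 7236 past 2-fold higher (4.85%) and 245 lower (3.39%). Among only 22 regions, a count of 0 is not far from those shares. Of the 86 other regions at genes with a promoter window, 12 were higher and 12 lower (13.95% each). Of 25097 regions on no protein-coding promoter window, 17.4% were higher and 6.88% lower. The median of the 86 was -0.06, with a range of -2.35 to 2.60. The Hdac4 promoter was the strongest region of the set, with a mean of 91.3 over the 11 libraries. It had 138.8 in naive, 145.9 in antigen-experienced and 46.9 in effector cells, and 67.6 to 98.8 at day 9. Smarca4, an ATPase of SWI/SNF, followed with 109, 109.3 and 41.5, and 51.7 to 83.0 at day 9, and its relative Smarca2 with 110.5, 123.6 and 40.1, and 51.7 to 76.2.

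The antigen-experienced and naive libraries differed past 2-fold at few regions. Of 198 regions called in both, 8 were past 2-fold higher and 0 lower in the antigen-experienced library (background 4.76%, 3.69% higher and 1.07% lower). Without centring, where the median of all regions was 0.16, 18 were higher, with no share over all regions given here. The Kdm5a region above led with 39.6 against 9.59 (1.78). It was followed by Ezh1, the second PRC2 methyltransferase, with 31.3 against 9.46 (1.46), and by Dnmt1, the maintenance methyltransferase, at chr9:20961627-20961910 with 31.1 against 9.73 (1.42). Arid2 had 15.8 against 4.66 (1.41), a region 5893 bp outside Smarca4 had 42.8 against 15.3 (1.26), and Ehmt1, an H3K9 methyltransferase, had 11.1 against 3.86 (1.15). Day 9 values were 20.7 to 35.6 at the Dnmt1 region and 39.1 to 56.6 at the Smarca4 region, which on the deposited scale are nearer to the antigen-experienced library.

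The lowest differences were within 2-fold, and 3 of the lowest 6 were in Tet1. Tet1 chr10:62851716-62851984 had 15.6 in antigen-experienced and 26.7 in naive cells (-0.90), chr10:62859015-62859279 had 15.8 and 25.6 (-0.83), and the region called at day 9 had 11.1 and 17.9 (-0.81). At day 9 the first pair had 7.62 to 10.3 and 6.24 to 11.8, below both splenocyte libraries on the deposited scale, whereas the called region had 12.7 to 21.5. After centring, high_to_high replicate 1 (-0.89) was above the antigen-experienced library (-1.06) at chr10:62851716-62851984.

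Among the 102 regions listed in all 11 libraries, values centred within each library placed the effector library below all 10 others in 34 (33.3%, against 20.5% of such regions) and above all others in 20 (19.6%, against 20.6%). SWI/SNF genes held 13 of the 34, out of 27 regions, and PRC2 genes 0 of 7. All 8 day 9 libraries were below both splenocyte libraries in 31 (30.4%, against 27.9%) and above both in 11 (10.8%, against 16.7%). The day 9 mean lay between effector and naive in 50 (49.0%, against 52.9%).

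The strongest region of each gene, taken among regions called in the most libraries, was present in all 11 for 37 of the 40 genes, with means of 12.1 at Arid2 to 91.3 at Hdac4. It was at the gene's own promoter in 19. On the deposited scale a splenocyte library was the highest of the 11 in 37 of 37, and the effector library the lowest in 21. The share of tags in peaks was highest in the splenocyte libraries. After centring, a splenocyte library was the highest in 26 of the 37, the effector library in 5 (Arid2, Bmi1, Eed, Ehmt2 and Setdb1) and a day 9 library in 6, and the effector library was the lowest in 12. The regions were chosen by their mean over the same deposited values, in which the splenocyte libraries weigh most. No such count was made over all genes, so these counts are not a result about the set. Chd4, Hdac7 and Hdac9 had no region in all 11 libraries. The strongest Hdac7 region had 73.6 in the naive library, 64.8 in the antigen-experienced one and 29.6 to 46.1 at day 9, and Chd4 had 35.7, 35.8 and 13.8 to 18.5 in 5 day 9 libraries. Neither region was in the effector list. Hdac9 reached only 5.33 in naive cells and 4.33 to 8.81 at day 9.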

How the data were processed

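ATAC-seq peak lists of 11 libraries were used. Bowtie2, HOMER 4.10, DESeq2 and build mm10 are named in the submitters' processing notes. Peaks were called on each library alone at a false discovery rate of 0.001, 4-fold over the surrounding 10 kb and a local p of 1e-04, per the file headers. The deposited signal is the normalized tag count, tags in the peak window per 10 M tags, per the file headers. The deposited ratio, the fold over local signal, was used only as a stricter filter (6-fold).

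Peaks overlapping by at least 1 bp were merged, and a region took its strongest peak in each library. Nearest spans came from a RefSeq table of the same build, which held all 40 genes. The table gives no exons or introns.

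The tests of day 9 used limma 3.58.1 and R 4.3.3 (eBayes with trend, pseudocount 1, which understates changes of low values), and pandas 2.3.3 and matplotlib 3.10.9 were used for counts and figures. On simulated data a 2-fold change was found in 90, 70, 81 and 55% of the regions given one, in the order YFP-high against YFP-low, high_to_high against low_to_low, low_to_high against low_to_low and low_to_high against high_to_high, and a 1.5-fold change in 53, 15, 29 and 14%. The simulated noise was independent between libraries, without a shift of scale or a shared deviation. These shares may therefore overstate what the real libraries can show.

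Replicates 1, 2 and 3 of low_to_low and low_to_high deviated weakly together (correlations of 0.298, 0.136 and 0.161). The labels do not say whether those numbers pair the libraries, and what made them deviate together was not tested. The high_to_high libraries did not deviate together with same-numbered libraries (-0.04 to -0.00).

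The genes, lists and tests were chosen with earlier results of these data known. Regions described were taken from lists set by rule. These held all called regions, the 5 with the lowest p in each day 9 comparison and the day 9-only regions. They also held the 6 largest differences each way between single libraries and the strongest region of each gene. The 5 highest effector-only and splenocyte-only regions completed them. Not every region on these lists is described. Where regions were chosen by p, a lack of overlap between their groups is no further support. Alternatives changed the pseudocount, centring, filters, merging, gene distance, covariates and libraries.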

Additional observations from a re-analysis of the deposited data

Results flagged for a closer look

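Of 12 regions examined, 1 had a library that stood apart. At Hdac4 chr1:92069496-92069762, low_to_high replicate 3 had a normalized tag count of 22.8, the lowest of the 5 YFP-high libraries at day 9. The others had 28.5 to 30.4, and the gap to the nearest took 0.75 of the group's range. On the centred log2 scale the gap took 0.41 of the range, below the limit used. Chance alone marks about 1 in 20 groups in this way.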

How the results depend on the processing

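On the deposited scale, without centring, 41 regions (0 higher, 41 lower) and 28 genes were called for high_to_high against low_to_low in place of 2 and 0. YFP-high against YFP-low then gave 9 regions and 15 genes in place of 2 and 0. No share over all regions is given beside these 9, and none over all genes beside the 28 and 15. They are therefore not a result about the set. In both comparisons a covariate for tags inside peaks left 0 regions, and a gene distance of 10 kb left 1, since the Tet2 region lies farther out. Leaving out 1 library at a time gave 0 to 2 regions in each. The replicate block over all 3 groups kept 2, 2, 0 and 0 regions and 0 genes, so it changed no call. The block by replicate number over low_to_high and low_to_low alone, added after seeing the data, gave 1 region (Tet2) in place of 0, and 116 over all regions. Between effector and naive cells 31 regions past 2-fold became 65 without centring and 15 at 6-fold local enrichment. Between antigen-experienced and naive cells 8 became 5 with a pseudocount of 4 and 18 without centring. Between effector and antigen-experienced cells 23 became 72 without centring and 10 at 6-fold. At 6-fold, regions in all 11 libraries fell from 102 to 62 and effector-only regions from 111 to 66. The cause of these shifts was not tested. Between single libraries, no share over all regions is given beside the counts without centring, with a pseudocount of 4 or at 6-fold. None is given beside the presence counts at 6-fold. The other 137 counts recomputed stayed within 1.5 times, where a count of 0 that stayed 0 was taken as unchanged. For high_to_high against low_to_low and for YFP-high against YFP-low, called regions were higher after centring and lower without it. At the regions described for day 9, the sign of the difference held in every alternative. Differences past 2-fold between single libraries kept their sign at the regions followed. Gene sums were not run for regions called in at least 6 of the 8 libraries.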
